A study of Mus musculus with 12 samples.

Results

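The genes described here encode 39 nuclear subunits of mitochondrial respiratory complexes II to V, with cytochrome c. They were chosen by name: 4 genes of complex II, 10 of complex III with cytochrome c, 10 of complex IV and 15 of complex V. Each name was matched to the gene symbol in the deposited count files, and all 39 were found among 35791 genes. All 39 also passed the filter on low counts, which kept 13154 genes. RNA came from small bowel of male C57BL/6 mice, given as 8 to 10 weeks old for every group, in 12 libraries of 3 per group. In Post 2'-FL the bowel was taken after ileocecal resection (removal of the end of the ileum and the cecum) with 2'-fucosyllactose, a fucosylated milk sugar, at 2.5 g/L, begun on day 0 with the surgery. Post control was taken after resection without the sugar. Pre 2'-FL and Pre control carry labels of bowel from before resection, the first with and the second without the sugar. As the sugar was begun on day 0, whether Pre 2'-FL mice had received it by then is not clear. According to the protocol text every bowel was collected 8 weeks after resection, which goes against the labels of the 6 Pre libraries. Groups follow each library's own label. The protocol describes liquid diets from day 7 and then chow, and no mouse is described as carrying a transgene or a mutation. If the Pre labels hold, Post and Pre bowel could also differ in age at collection and in diet. These cannot be told apart from resection. The bowel segment, and whether libraries came from separate mice or shared a mouse before and after surgery, are not given in the labels, so p-values measure the spread between these libraries.

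Complex II (succinate dehydrogenase) passes electrons from succinate to ubiquinone, complex III passes them on to cytochrome c, and complex IV (cytochrome c oxidase) hands them to oxygen. Complexes III and IV pump protons, and complex V (ATP synthase) lets them back in to make ATP. The subunits described here are made from nuclear genes, while the catalytic core of complex IV and parts of complexes III and V come from mitochondrial DNA and are not analysed here. In the small bowel, absorptive enterocytes are rich in mitochondria and spend ATP on nutrient transport.

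Counts per library totalled 5663275 to 9385266, and levels are given as CPM (counts scaled to a common library size, set by the trimmed mean of M values). Changes are log2 fold changes with their standard error (SE) from edgeR's quasi-likelihood F test, 3 libraries against 3, and a gene was called at a Benjamini-Hochberg adjusted p under 0.05 over the 13154 genes. The label of the tissue fitted its markers: all 10 enterocyte markers were found, whereas 5 of 8 pancreatic acinar markers were at 0 in every library. The summed enterocyte markers were highest in Post 2'-FL, at 65408 to 70498 CPM, against 45006 to 61442 CPM in Post control, 19184 to 38679 CPM in Pre 2'-FL and 28635 to 45206 CPM in Pre control. Fabp2, a fatty acid binding protein, averaged 37010, 19212, 5117 and 8708 CPM in the same order, and most other markers did not follow it. Fabp2 was the largest part of that sum in both Post groups, while Apoa1 was larger in Pre 2'-FL and Pre control (7295 and 10627 CPM). Of the 10 markers, 2 were called higher and 3 lower in Post 2'-FL against Pre 2'-FL (median log2 change 0.11), and 1 higher and 5 lower against Post control (median -0.65). Vil1, a protein of the brush border, averaged 1010.0 CPM in Post 2'-FL, 2774 in Post control, 2445 in Pre 2'-FL and 3048 in Pre control. In whole bowel, fewer cells of a type and less RNA per cell cannot be told apart, and these marker values are not corrected for transcript length. Levels also followed transcript length across 12654 genes, which are not independent: short transcripts were relatively high in Post 2'-FL, where Spearman's correlation was -0.44, -0.57 and -0.60 in the 3 libraries. The correlation was -0.04, -0.21 and 0.36 in Post control, 0.50, 0.39 and 0.37 in Pre 2'-FL and 0.42, 0.45 and 0.26 in Pre control. Libraries that stood apart were Post control 3, by that correlation, and Pre 2'-FL 1, where the summed adipose markers reached 541 CPM. Another measure was the chi-square of counts per degree of freedom between libraries of a group. By it Pre 2'-FL 1 (83.4 and 87.7) and Pre control 3 (75.1 and 82.3) lay far from their groups, and Post control 3 less so (22.5 and 35.7). The fits below without the libraries that stood apart leave out Post control 3 and Pre 2'-FL 1 only. As most subunits have short mRNAs, most changes of the members are also given after a correction for transcript length and GC content, fitted in every library.

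Against Pre 2'-FL, 35 of the 39 mRNAs rose in Post 2'-FL and 1, Sdha, fell, where 25.3% of all genes tested were called higher and 30.0% lower. The median log2 change of the 39 was 1.66, against -0.13 over all genes tested. For 36 members every Post 2'-FL library lay above every Pre 2'-FL library, a separation seen in 27.9% of all genes, and for Sdha every one lay below, as in 33.7% of all genes. The 3 members that were not called were Uqcrc1 at 0.50, Atp5a1 at 0.14 and Atp5b at 0.17. After correction 26 members were called higher and 2, Sdha and Uqcrb, lower, against 21.3% and 14.7% of all genes, and the median was 0.75, against 0.02 over all genes. The 39 mRNAs together took 2.38% to 2.92% of the counts in Post 2'-FL, 1.52% to 1.82% in Post control, 1.25% to 1.47% in Pre 2'-FL and 1.34% to 1.43% in Pre control. The share in Post 2'-FL lay above that of every other library. Markers of other cell types moved in the same comparison: all 6 endothelial markers were called lower (median -2.39), with sums of 14.0 to 21.6 CPM in Post 2'-FL against 60.9 to 133 CPM in Pre 2'-FL. Of 5 adipose markers 3 were lower (median -2.99), with sums of 85.5 to 112 CPM against 74.7 to 541 CPM, and of 3 nuclear RNAs 2 were lower, with Malat1 at 20.1 CPM against 121 CPM on average. These marker values are without correction for transcript length. In Post control against Pre control the endothelial median was -1.54, with 1 of 6 called lower, where 6.33% of all genes were. The part of the markers and of length in the result was not tested.

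**Figure D1:**
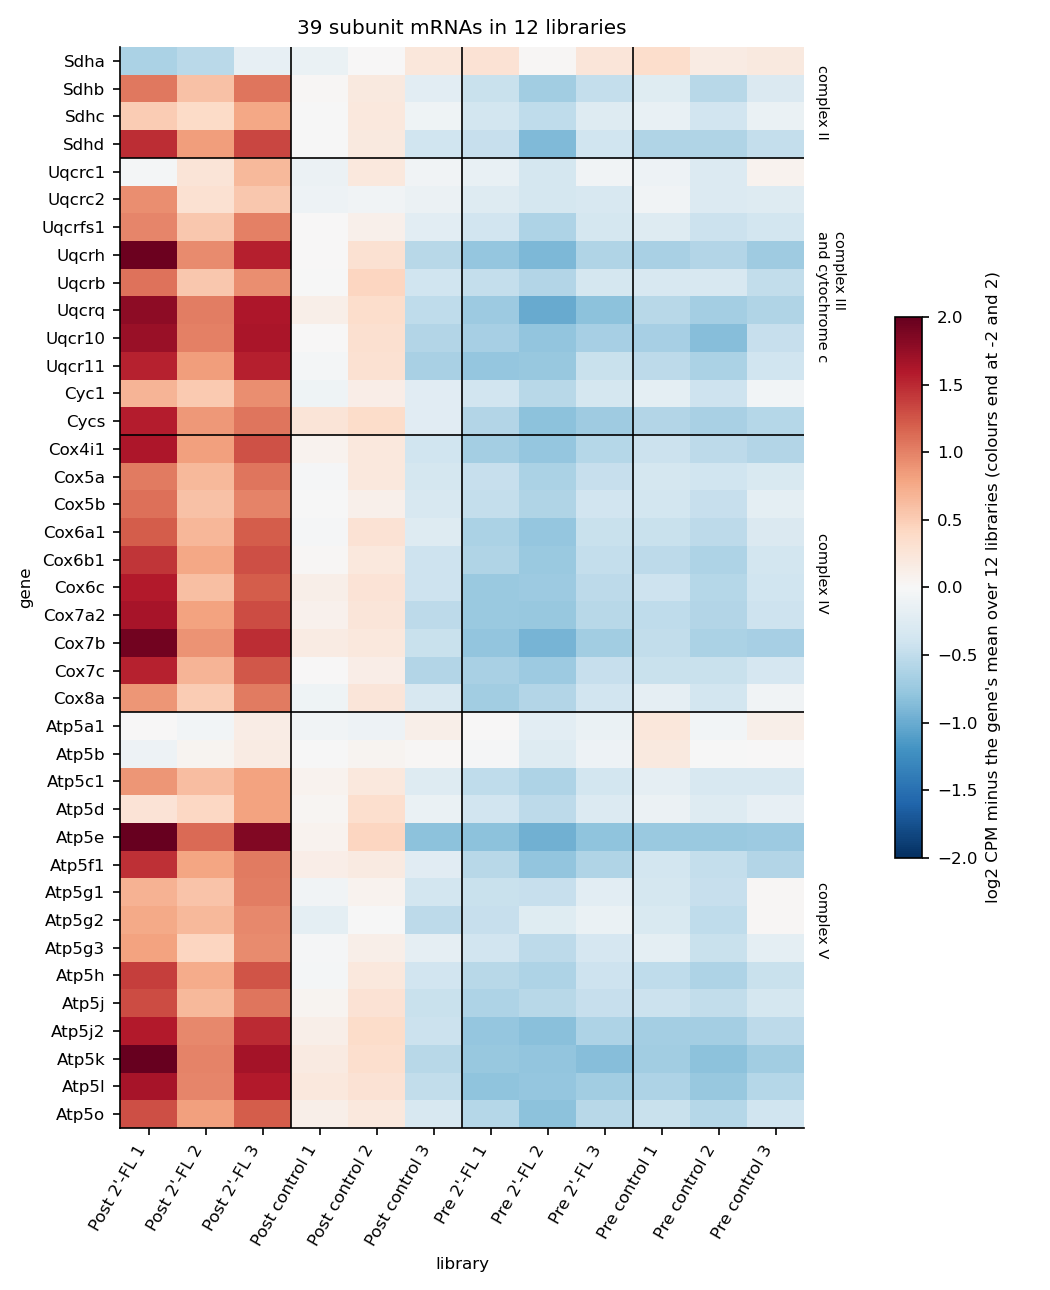
Level of each of the 39 subunit mRNAs (rows, by complex) in the 12 libraries (columns, by group), as log2 CPM minus the gene's mean over the 12 libraries. The 3 Post 2'-FL libraries are high for most rows (median over the 39 of 1.29, 0.66 and 1.08), Sdha is low in them, and Atp5a1 and Atp5b stay near their means.

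In complex II, 3 of 4 subunits rose and the catalytic one fell in Post 2'-FL against Pre 2'-FL. Sdha, the flavoprotein that oxidises succinate, was measured at 239, 255 and 331 CPM in the Post 2'-FL libraries, 339, 375 and 434 in Post control, 453, 379.7 and 438 in Pre 2'-FL and 473, 416 and 425 in Pre control. Every Post 2'-FL library lay below every library of the other groups. The change against Pre 2'-FL was -0.63 ± 0.19 (SE; adjusted p = 0.0124, edgeR's quasi-likelihood F test) and -0.48 ± 0.18 after correction (adjusted p = 0.0471). The call was lost without Pre 2'-FL 1 (log2 change -0.50, adjusted p = 0.0673), without both libraries that stood apart (adjusted p = 0.0632), in a fit of the 2 groups alone (adjusted p = 0.0517), with a replicate block and correction together (adjusted p = 0.0541) and with the shortest annotated transcript (log2 change -0.33). The value was -0.03 where coding length replaced transcript length.

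Sdhd, a membrane anchor that helps to hold ubiquinone and heme, had 1303, 840.4 and 1182 CPM in the Post 2'-FL libraries, 469, 538 and 358 in Post control, 341, 254 and 357 in Pre 2'-FL and 312, 309 and 337 in Pre control. Sdhb, the iron-sulfur subunit that carries electrons between Sdha and the anchors, had 739, 538 and 747 CPM in the Post 2'-FL libraries, 363, 408 and 308 in Post control, 263, 221 and 257 in Pre 2'-FL and 301, 244 and 291 in Pre control. For both, the Post 2'-FL libraries lay above all 9 others, and Post control overlapped neither Pre group. The changes against Pre 2'-FL were 1.80 ± 0.23 for Sdhd and 1.45 ± 0.20 for Sdhb (adjusted p = 5.58e-05 and 7.57e-05), and 0.89 and 0.80 after correction, both still called. Sdhc, the other anchor, averaged 388 ± 54.6 CPM in Post 2'-FL and 203 ± 17.7 CPM in Pre 2'-FL (SD, n = 3 each) and rose by 0.93. Its transcript is long for its coding part, 3171 nt, and its change was 1.21 after correction for transcript length but 0.24, and not called, with coding length.

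Because Sdha and its partners moved in opposite directions without correction, the promoters of Sdha and of 1 partner, Sdhd, are shown. Windows from RefSeq (GRCm38.p6), 250 bases before to 50 bases after the annotated start, were matched to 31 of the 39 members. Capitals mark matches on either strand to 4 motifs linked to respiratory genes: GCGC, any base, then TGCGC (NRF1), CCGGAAG (ETS factors such as GABP), TCAAGGTCA (estrogen-related receptors) and AAGATGGCG (YY1). The window of Sdha lies at chr13:74350191-74350490, strand -, and that of Sdhd at chr9:50603800-50604099, strand -.
Sdha: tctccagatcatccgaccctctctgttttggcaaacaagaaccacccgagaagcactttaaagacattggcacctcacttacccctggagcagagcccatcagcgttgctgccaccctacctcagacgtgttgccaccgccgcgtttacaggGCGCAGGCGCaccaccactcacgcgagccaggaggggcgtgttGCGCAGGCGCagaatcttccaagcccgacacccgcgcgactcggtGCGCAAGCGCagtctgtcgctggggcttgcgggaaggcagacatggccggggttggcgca
Sdhd: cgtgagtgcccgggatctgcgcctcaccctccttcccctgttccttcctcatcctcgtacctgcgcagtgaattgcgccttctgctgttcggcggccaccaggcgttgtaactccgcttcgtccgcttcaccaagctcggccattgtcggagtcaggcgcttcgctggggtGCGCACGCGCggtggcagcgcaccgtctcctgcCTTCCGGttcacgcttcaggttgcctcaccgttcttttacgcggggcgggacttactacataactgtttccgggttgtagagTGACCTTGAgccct
Sdha held 3 matches to the NRF1 letters and none to the other motifs, while Sdhd held 1 match each to the NRF1, ETS and estrogen-related receptor letters. The window of Sdhb, not shown, held 1 match to the ETS letters and none to the other motifs, and no window was matched for Sdhc. Among the 31 members the NRF1 letters occurred in 10 (32.3%), against 5.19% of 27025 genes with a window, and the ETS letters in 12 (38.7%), against 9.93%. The estrogen-related receptor letters occurred in 2 members and in 0.466% of all genes, and the YY1 letters in 2 members and in 1.64% of all genes. A match is a description of the letters and says nothing of binding in these samples or of why an mRNA changed.

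In complex III, 8 of 9 subunits rose in Post 2'-FL against Pre 2'-FL, the large core protein Uqcrc1 being the one not called. Uqcrh, the acidic hinge protein at the cytochrome c docking side, had the highest level per kb of transcript in the complex and was at 1371, 673 and 1026 CPM in the Post 2'-FL libraries, 352, 433 and 239 in Post control, 205, 189 and 231 in Pre 2'-FL and 225, 234 and 215 in Pre control. Uqcr10, a small accessory subunit near the Rieske protein, was at 572, 346 and 534 CPM in the Post 2'-FL libraries, 174, 215 and 114 in Post control, 108, 100.2 and 109 in Pre 2'-FL and 108, 95.1 and 126 in Pre control. Uqcrq, a small subunit of the membrane part, had the smallest p of the complex and was at 770.2, 455 and 687 CPM in the Post 2'-FL libraries, 243, 284 and 157 in Post control, 134, 111 and 127 in Pre 2'-FL and 152, 139 and 147 in Pre control. In each of the 3 the Post 2'-FL libraries lay above all others. Uqcrh rose by 2.29 ± 0.27 (SE), Uqcr10 by 2.19 ± 0.25 and Uqcrq by 2.36 ± 0.25, with adjusted p between 3.14e-05 and 3.98e-05. After correction the changes were 0.91, 1.10 and 1.71, and all 3 were still called.

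Uqcrc1, named here after its values were seen, had 401, 493 and 648 CPM in the Post 2'-FL libraries, 380.4, 481 and 392 in Post control, 373, 325 and 396 in Pre 2'-FL and 385, 342 and 433 in Pre control. Its Post 2'-FL libraries lay just above Pre 2'-FL but overlapped Post control and Pre control, and the change of 0.50 ± 0.21 did not pass (adjusted p = 0.0578). It passed with DESeq2 (adjusted p = 0.0137) and with coding length (0.93). In edgeR's test it also passed with DESeq2 size factors (adjusted p = 0.0353) and the shortest annotated transcript (adjusted p = 0.0318). Some fits with a library left out passed, as without Post 2'-FL 1 (adjusted p = 0.0176). Others did not, as without Post 2'-FL 3 (adjusted p = 0.271), nor did the main correction (adjusted p = 0.104). Uqcrc2, the other core protein, rose by 0.92 and had 0.09 after correction, no longer called. Uqcrfs1, the Rieske iron-sulfur protein, rose by 1.30 and Cyc1, the heme protein cytochrome c1, by 1.14. Both were called again after correction, at 0.43 and 0.82. The small accessory subunit Uqcr11 rose by 2.00 (1.11 after correction).

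The sign of Uqcrb, a small subunit that helps to form the ubiquinone site, depended on the correction. Its measured level was 481, 329 and 431 CPM in the Post 2'-FL libraries, 226, 305 and 173 in Post control, 163, 151 and 178 in Pre 2'-FL and 181, 181 and 161 in Pre control. Corrected, its level was 114, 174 and 187 CPM in the Post 2'-FL libraries, 254, 321 and 289 in Post control, 282, 210.2 and 236 in Pre 2'-FL and 279, 260.1 and 214 in Pre control. The uncorrected Post 2'-FL libraries lay above all others, whereas the corrected ones lay below all others. The log2 change was 1.34 ± 0.22 without correction and -0.62 ± 0.20 with it, -0.40 with the shortest annotated transcript and 0.04 with coding length.

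Cycs, the soluble cytochrome c that shuttles electrons between complexes III and IV and triggers apoptosis when released, was at 2252, 1390.0 and 1603 CPM in the Post 2'-FL libraries, 908, 975 and 651 in Post control, 507, 430.3 and 466 in Pre 2'-FL and 508, 482 and 510.4 in Pre control. The Post 2'-FL libraries were highest, Post control came next and overlapped neither Pre group, and the Pre groups overlapped each other. Cycs rose by 1.90 ± 0.24 in the 2'-FL arm (adjusted p = 4.71e-05), 1.45 after correction. Its annotated mRNA is 3123 nt long with a coding part of 315 nt, so it was not among the short transcripts. With coding length the change was 0.47, still called. Cycs mRNA stood at 3.05 ± 0.843 times Cyc1 mRNA in Post 2'-FL, 2.48 ± 0.288 in Post control, 1.78 ± 0.0940 in Pre 2'-FL and 1.66 ± 0.157 in Pre control, as ratios of CPM (SD, n = 3 each).

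All 10 subunits of complex IV rose in Post 2'-FL against Pre 2'-FL, by 1.38 (Cox8a) to 2.29 (Cox7b). Cox4i1, the largest of the nuclear subunits and a site of regulation by ATP, had the highest level per kb averaged over the 12 libraries, though Cox8a was above it in Pre control, and was at 2158, 1236 and 1701 CPM in the Post 2'-FL libraries, 738, 811 and 531 in Post control, 438, 409.9 and 471 in Pre 2'-FL and 519, 488 and 470.1 in Pre control. Cox6a1, the isoform of non-muscle tissues, came next in that average, below Cox8a in both Pre groups, and was at 1079.6, 738 and 1079.8 CPM in the Post 2'-FL libraries, 456, 568 and 388 in Post control, 301, 273 and 341 in Pre 2'-FL and 341, 324 and 380.5 in Pre control. Cox7b, a small subunit of the membrane part, had 1488, 729 and 1088 CPM in the Post 2'-FL libraries, 437, 453 and 287 in Post control, 227, 206 and 241 in Pre 2'-FL and 279, 252 and 248 in Pre control. In each of the 3, Post 2'-FL lay above all other libraries, and Post control 3 was lower than the other Post control libraries. The changes were 1.95 ± 0.24, 1.66 ± 0.22 and 2.29 ± 0.26 (SE), with adjusted p of 4.73e-05, 6.14e-05 and 3.78e-05.

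After correction 6 of the 10 were still called. Cox4i1 kept the largest change (1.21), followed by Cox6a1 (0.83) and Cox7a2, the isoform of non-muscle tissues (0.81). Cox7b went to 0.56, Cox6b1, which faces the intermembrane space and bridges the dimer, to 0.55, and Cox8a to 0.53. The 4 that were no longer called were Cox5a (0.12), Cox5b, which binds zinc (0.19), Cox6c (0.37) and Cox7c (0.20). With coding length in place of transcript length each of these 4 was called higher, at 0.51 to 0.72.

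In complex V the 2 largest F1 subunits behaved unlike the rest. Atp5b, the catalytic beta subunit, was at 1775, 1974 and 2123 CPM in the Post 2'-FL libraries, 1887, 1977 and 1916 in Post control, 1858, 1579 and 1764 in Pre 2'-FL and 2181, 1885 and 1902 in Pre control. Atp5a1, the alpha subunit that alternates with it in the ring, was at 1319.8, 1271 and 1467 CPM in the Post 2'-FL libraries, 1249, 1222 and 1434 in Post control, 1326, 1144 and 1205 in Pre 2'-FL and 1539, 1272 and 1424 in Pre control. All 4 groups overlapped for Atp5a1. For Atp5b, Post 2'-FL overlapped every other group, while Pre 2'-FL lay below Post control and Pre control. The changes of 0.17 ± 0.20 and 0.14 ± 0.20 did not pass (adjusted p = 0.480 and 0.554), and among the 3 length measures both passed only with coding length, at 0.62 and 0.61.

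The small F1 subunit Atp5e (epsilon), the member with the largest change and taken up for that, was at 1092, 542 and 891 CPM in the Post 2'-FL libraries, 261, 336 and 141 in Post control, 140.2, 127 and 142 in Pre 2'-FL and 148, 148 and 151 in Pre control. Its Post 2'-FL libraries lay far above the others, and Post control 3 fell among the Pre libraries. Atp5e rose by 2.63 ± 0.31 (adjusted p = 3.88e-05) and by 1.46 ± 0.21 after correction. Atp5c1 (gamma, the rotating shaft) rose by 1.27 and Atp5d (delta, at the foot of the shaft) by 0.90, with 0.79 (called) and 0.43 (not called) after correction. For Atp5c1 the corrected value was 0.40, no longer called, with the shortest annotated transcript. Atp5e mRNA stood at 0.436 ± 0.171 of Atp5b mRNA in Post 2'-FL, 0.127 ± 0.0492 in Post control, 0.0787 ± 0.00284 in Pre 2'-FL and 0.0753 ± 0.00623 in Pre control (CPM ratio, SD, n = 3 each). Atp5a1 held 0.693 ± 0.0499, 0.676 ± 0.0662, 0.707 ± 0.0210 and 0.710 ± 0.0372 of Atp5b in the same order of groups, within the spread between libraries.

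The windows of Atp5e (chr2:174464052-174464351, strand -) and Atp5b (chr10:128083057-128083356, strand +) are shown as an F1 pair of which 1 mRNA rose and the other was not called, with capitals as above.
Atp5e: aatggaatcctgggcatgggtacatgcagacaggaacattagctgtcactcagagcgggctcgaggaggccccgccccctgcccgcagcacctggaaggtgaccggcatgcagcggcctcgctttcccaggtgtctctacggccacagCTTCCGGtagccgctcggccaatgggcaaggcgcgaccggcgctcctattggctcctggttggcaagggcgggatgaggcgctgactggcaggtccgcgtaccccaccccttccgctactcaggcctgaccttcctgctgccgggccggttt
Atp5b: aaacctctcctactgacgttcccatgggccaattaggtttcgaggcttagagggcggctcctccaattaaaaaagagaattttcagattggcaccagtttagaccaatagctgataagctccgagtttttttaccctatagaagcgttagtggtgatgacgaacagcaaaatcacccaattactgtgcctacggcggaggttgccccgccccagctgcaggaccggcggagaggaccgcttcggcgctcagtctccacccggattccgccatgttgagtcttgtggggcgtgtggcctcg
Atp5e held 1 match to the ETS letters, and Atp5b held no match to any of the 4 motifs in this window.

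The genes Atp5g1, Atp5g2 and Atp5g3 encode the same mature subunit c of the membrane rotor. Atp5g3 had the highest level per kb of complex V averaged over the 12 libraries, though Atp5e was above it in Post 2'-FL and Atp5b in the other 3 groups. Atp5g3 was at 1284, 989.6 and 1417 CPM in the Post 2'-FL libraries, 719.6, 793 and 646 in Post control, 566, 511 and 579 in Pre 2'-FL and 639, 539 and 642 in Pre control. Post 2'-FL lay above all others, and the change against Pre 2'-FL was 1.16 ± 0.20 (adjusted p = 3.55e-04), but -0.04 after correction. Atp5g1 rose by 1.14 and Atp5g2 by 1.06, and Atp5g2 had 0.22 after correction, no longer called. The corrected value of Atp5g1 hung on its transcript: it was 1.75 with the longest annotated one, 4715 nt, and 0.36 with the shortest, 596 nt. The makeup of subunit c mRNA varied little: Atp5g3 gave 66.0% ± 2.03 of the summed CPM of the 3 genes in Post 2'-FL, 68.8% ± 1.42 in Post control, 65.4% ± 2.19 in Pre 2'-FL and 66.4% ± 2.85 in Pre control (SD, n = 3 each).

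All 4 genes of the peripheral stalk, which keeps the F1 head from turning, rose: Atp5f1 (subunit b) by 1.77, Atp5h (subunit d) by 1.69, Atp5j (coupling factor 6) by 1.58 and Atp5o (the oligomycin sensitivity protein) by 1.76. All 4 were called again after correction, at 0.42 (Atp5h) to 1.11 (Atp5f1). The 3 small membrane subunits rose too. Atp5j2 (subunit f) was at 750.3, 489 and 709 CPM in the Post 2'-FL libraries, 273, 324 and 187 in Post control, 146, 141 and 164 in Pre 2'-FL and 156, 157 and 175 in Pre control. Atp5l (subunit g, at the dimer interface) was at 1058, 669 and 1014 CPM in the Post 2'-FL libraries, 394, 413 and 241 in Post control, 194, 197 and 209.9 in Pre 2'-FL and 221, 199.7 and 228 in Pre control. For both, Post 2'-FL lay above Post control, and Post control above both Pre groups. Atp5j2 rose by 2.11 ± 0.23, Atp5l by 2.19 ± 0.24 and Atp5k (subunit e) by 2.41 ± 0.27, each with an adjusted p of at most 3.31e-05, and by 1.04, 0.69 and 1.18 after correction.

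**Figure D2:**
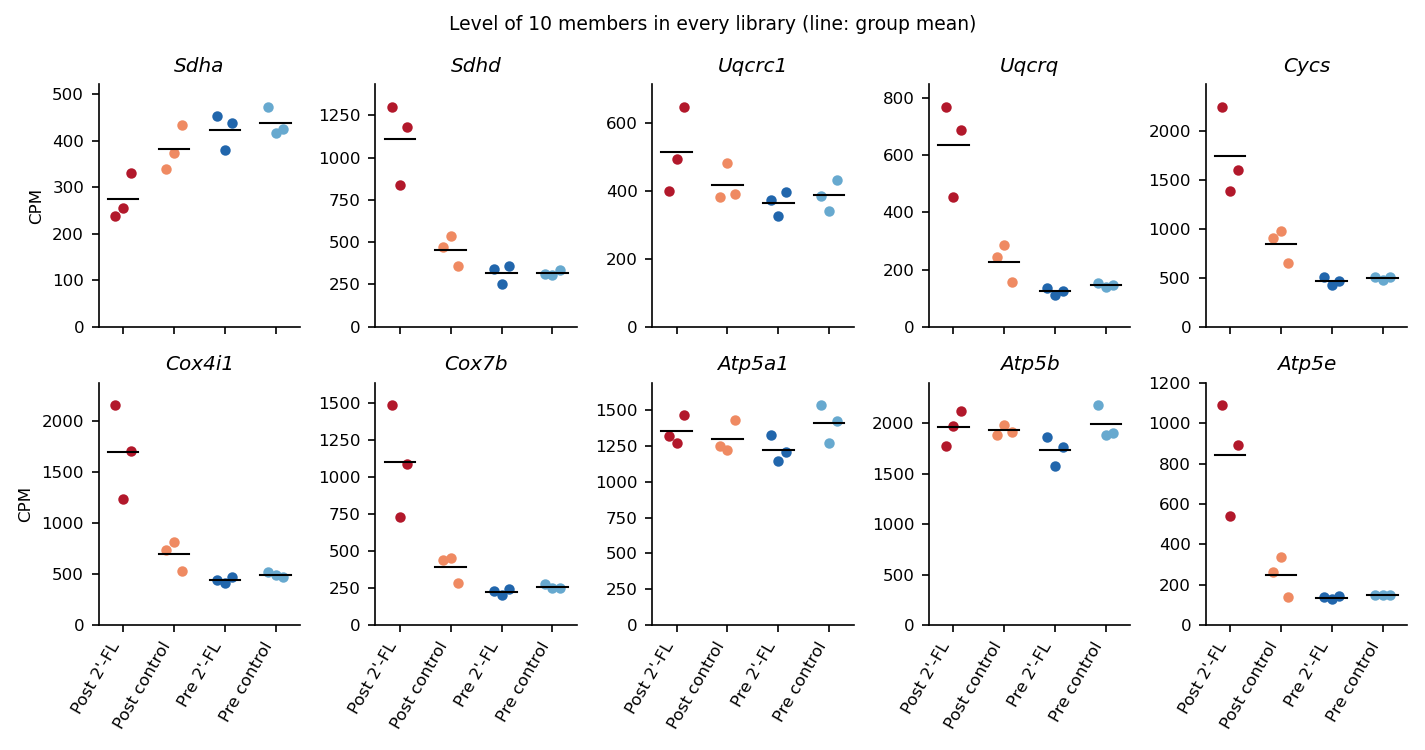
Level in CPM (axes start at 0) of 10 members in every library, with the group mean as a line. Sdha is lowest in Post 2'-FL, Uqcrc1, Atp5a1 and Atp5b overlap between Post 2'-FL and Post control, and the other 6 are highest in Post 2'-FL.

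Summed over its subunits, each complex was highest in Post 2'-FL. Complex II summed to 2446 ± 409 CPM in Post 2'-FL, 1468 ± 143 in Post control, 1192 ± 131 in Pre 2'-FL and 1262 ± 80.5 in Pre control (SD, n = 3 each). Complex III with cytochrome c summed to 7026 ± 1446, 3426 ± 616, 2367 ± 169.7 and 2568 ± 129 CPM in the same order. Complex IV summed to 8778 ± 2135, 3868 ± 803, 2557 ± 208 and 2927 ± 152 CPM. For complex V the sums were 13093 ± 1837, 7933 ± 805, 6160.5 ± 389.6 and 6938 ± 449 CPM. In all 4 complexes Pre 2'-FL had the lowest mean. Post 2'-FL over Pre 2'-FL was 2.05 for complex II, 2.97 for III, 3.43 for IV and 2.13 for V. After correction these ratios were 1.53, 1.76, 1.55 and 1.39, so the order of the complexes changed. Post 2'-FL over Post control was 1.67, 2.05, 2.27 and 1.65, and 1.25, 1.30, 1.12 and 1.11 after correction. The corrected sums of complex IV overlapped between these groups, with Post 2'-FL 2 at 4362 CPM and Post control 1 and 2 at 4428 and 4535. Those of the other complexes did not.

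**Figure D3:**
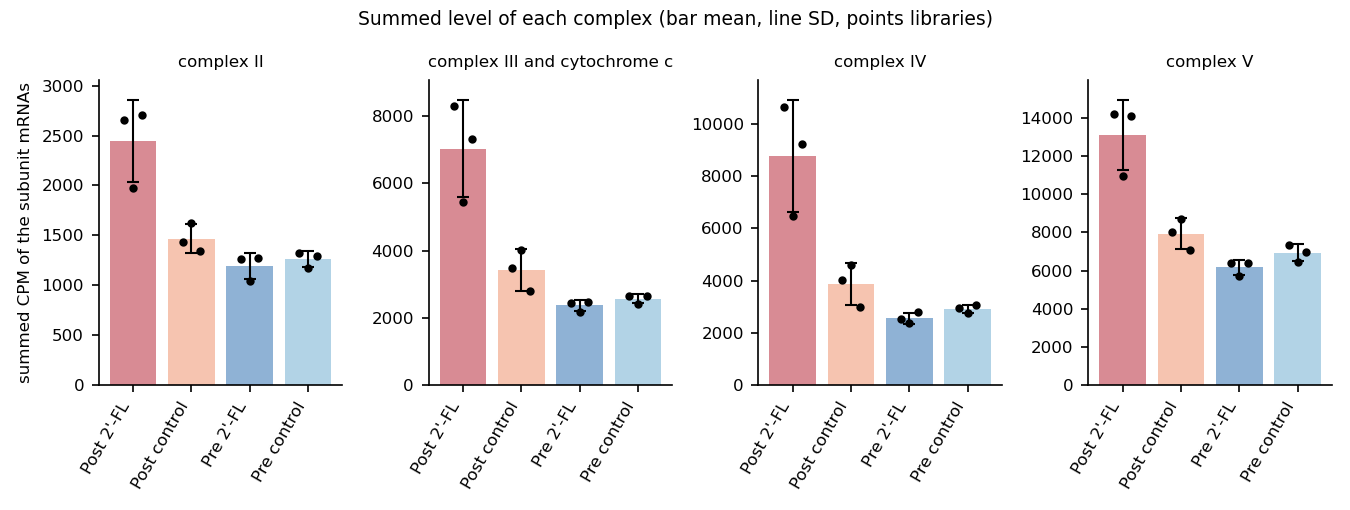
Summed CPM of the subunit mRNAs of each complex in each group (bars, mean; lines, SD; points, libraries; axes start at 0). Post 2'-FL is highest in all 4 complexes, with a ratio over Pre 2'-FL of 2.05 (II) to 3.43 (IV).

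Ratios of subunit mRNAs within a complex also differed between groups. They are CPM ratios not scaled to length, so each is read between groups and not as a proportion of molecules. Sdhd stood at 4.11 ± 1.18 times Sdha in Post 2'-FL, 1.22 ± 0.340 in Post control, 0.746 ± 0.0732 in Pre 2'-FL and 0.731 ± 0.0679 in Pre control. Uqcrh stood at 2.12 ± 1.13, 0.812 ± 0.175, 0.572 ± 0.0185 and 0.588 ± 0.0939 times Uqcrc1 in the same order (CPM ratios, SD, n = 3 each). In both pairs the first gene has the shorter mRNA. Over the 39 members, change in the 2'-FL arm followed mRNA length with a Spearman's correlation of -0.59, and of -0.77 for coding length, as a description of genes that share libraries. The 23 members with transcripts of at most 1000 nt all rose, where 77.3% of 732 genes of that length did. Of 11 members over 1000 and up to 2000 nt 9 rose, where 48.5% of 2608 genes did, and of 5 longer ones 3 rose, where 14.2% of 9314 genes did. After correction 15 of the 23, 8 of the 11 and 3 of the 5 were called higher, where 32.4%, 20.6% and 19.8% of genes of those lengths were. The part of transcript length in these changes was not tested.

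**Figure D4:**
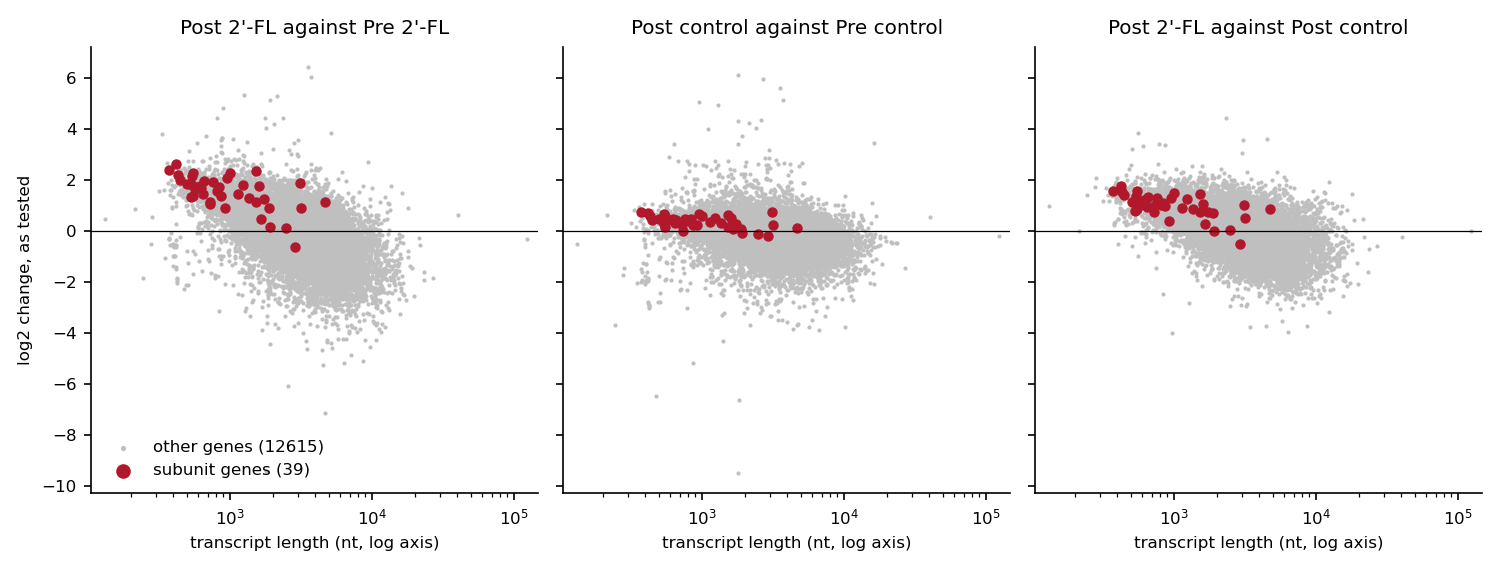
Log2 change without correction (y axis) against transcript length in nt (log x axis) for the 39 subunit genes (red) and 12615 other genes (grey) in 3 comparisons. Short genes sit high in the panels that hold Post 2'-FL, where the members lie mostly above 0, up to 2.63, and less so in Post control against Pre control.

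Called higher in Post 2'-FL against Pre 2'-FL without correction and with all 3 measures of length (longest transcript, shortest transcript, coding length) were 23 members. The share of all genes that passed all of these fits was not counted, and cannot exceed the 21.3% called higher after correction. Of complex II they were Sdhb and Sdhd, of complex III Uqcrfs1, Uqcrh, Uqcrq, Uqcr10, Uqcr11, Cyc1 and, beside it, Cycs. Of complex IV they were Cox4i1, Cox6a1, Cox6b1, Cox7a2, Cox7b and Cox8a, and of complex V Atp5e, Atp5f1, Atp5h, Atp5j, Atp5j2, Atp5k, Atp5l and Atp5o.

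Post 2'-FL was then set against Post control, which asks what went with the sugar after resection and shares the Post 2'-FL libraries with the comparison above. Without correction 34 members were higher and none lower, where 18.8% of all genes tested were called higher and 19.3% lower, with a median log2 change of 1.04, against 0.02 over all genes. By complex 3 of 4 genes of complex II, 9 of 10 of complex III with cytochrome c, 10 of 10 of complex IV and 12 of 15 of complex V were called. The largest changes were those of Atp5e (1.78 ± 0.30, adjusted p = 8.98e-04), Uqcrh (1.58) and Atp5k (1.57). Sdha (-0.48, adjusted p = 0.0599), Uqcrc1 (0.30), Atp5a1 (0.05), Atp5b (0.02) and Atp5d (0.42) were not called. The call of Sdhc (0.52) was lost without Post control 1, Post control 3 or Post 2'-FL 3 (adjusted p = 0.0680, 0.0756 and 0.132). It was also lost with no filter on low counts (0.107), with a replicate block (0.0520), in a fit of the 2 groups alone (0.0953) and without both libraries that stood apart (0.0843), all as adjusted p. Summed smooth muscle markers were also higher in Post 2'-FL, at 1470 to 1715 CPM against 582 to 905 CPM in Post control. Tagln differed most in CPM (means of 578 and 155), and Myh11 was the only one of them with a lower mean (45.8 and 78.1). Summed nuclear RNAs were lower, at 96.2 to 155 CPM against 241 to 269 CPM. These marker values are without correction too, and the part of the markers in the result was not tested.

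After correction 10 members were called higher and 1, Uqcrb, lower (-0.86), where 10.4% of all genes were called higher and 11.4% lower, and the median was 0.29. In complex IV only Cox4i1 was called, and the complex median was 0.07. Those called higher without correction and with all 3 measures of length were 7: Sdhd, Uqcrq, Uqcr11, Cyc1, Cox4i1, Atp5e and Atp5f1. For all genes that share was not counted, and it cannot exceed the 10.4% above. Uqcrq had the largest corrected change of these 7 members, 0.96 ± 0.20 (SE; adjusted p = 0.00640), followed by Atp5e at 0.67 ± 0.21 and Cox4i1 at 0.66 ± 0.21. With 1 library left out the corrected calls numbered 3 to 14, with 3 without Post control 1, Post control 3 or Post 2'-FL 1 and 14 without Post 2'-FL 2.

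**Figure D5:**
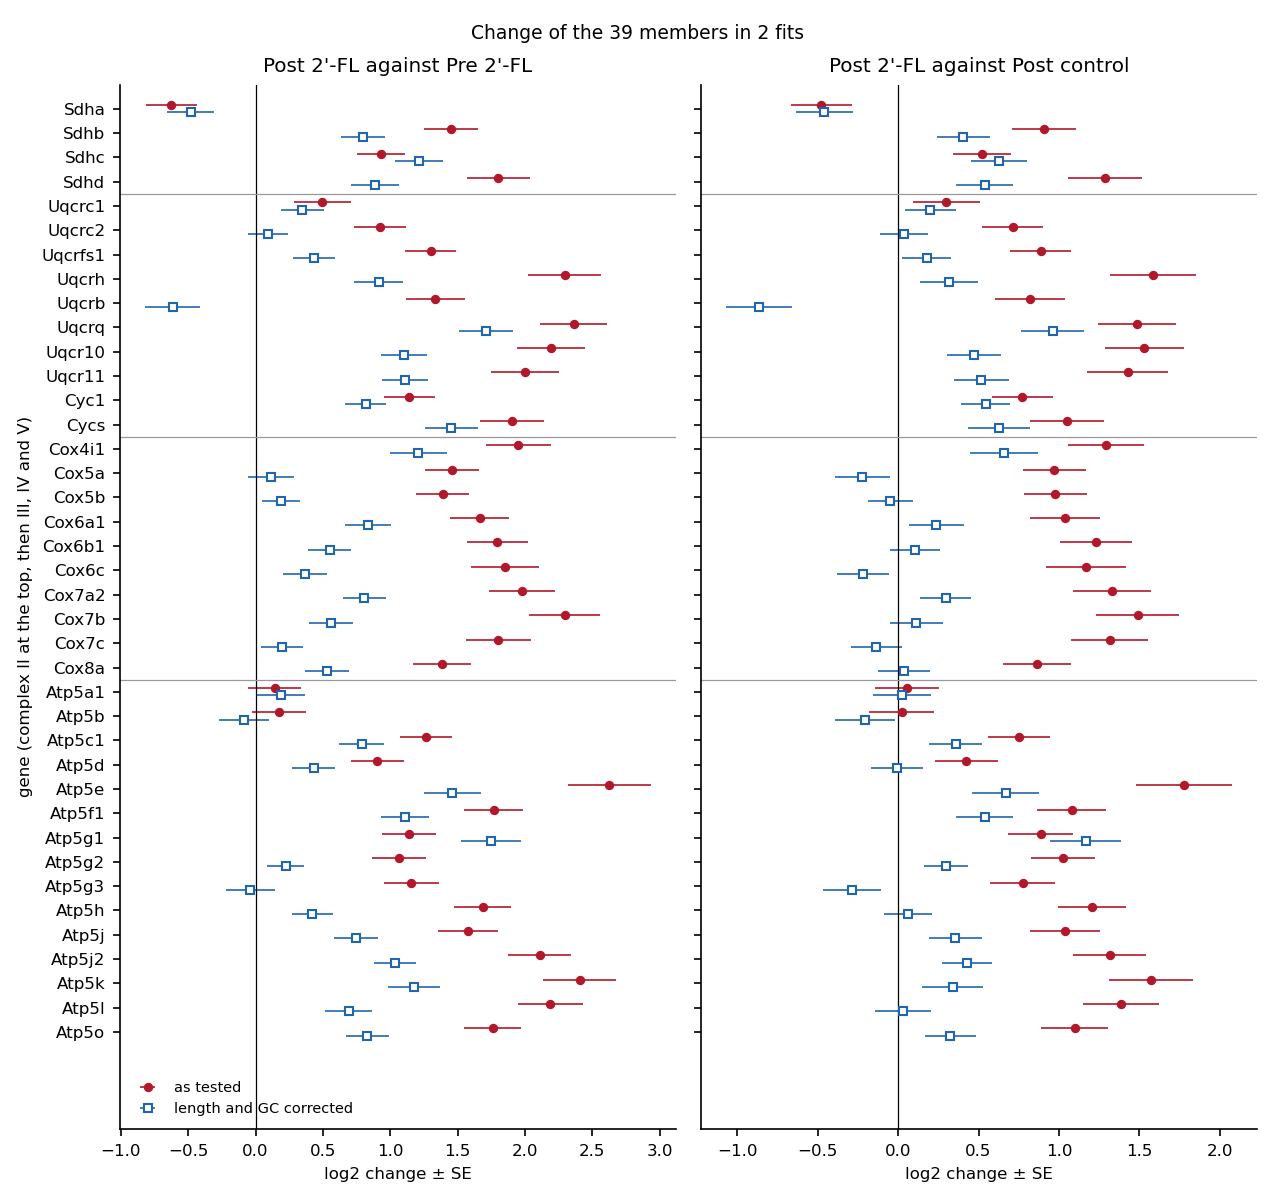
Log2 change with SE of each member without correction (red circles) and after correction for length and GC (blue squares), for Post 2'-FL against Pre 2'-FL (left) and Post 2'-FL against Post control (right). The corrected changes are smaller for most short mRNAs, larger for Sdhc and Atp5g1, and below 0 for Uqcrb in both panels.

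In the control arm, Post control against Pre control, the changes were smaller. Cycs was the only member called (0.75 ± 0.23, adjusted p = 0.0487), where 4.42% of all genes were called higher and 6.33% lower. The median over the members was 0.43, against -0.05 over all genes, 36 of 39 values were above 0, and 17 members did not overlap between the groups, all higher, where 17.3% of all genes did so. Next by p came Atp5j2 (0.68 ± 0.22, adjusted p = 0.0643), Atp5k (0.77) and Atp5l (0.69). After correction 7 were called higher, where 7.73% of all genes were called higher and 4.97% lower: Uqcr10, Uqcr11, Cycs, Atp5e, Atp5j2, Atp5k and Atp5l, at 0.51 to 0.90. Without Post control 3 the uncorrected count was 7, as it was without both libraries that stood apart, and without Post control 1 or 2 or any single Pre control library it was 0.

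No member was called between Pre 2'-FL and Pre control, where 0.0152% of all genes were called lower and none higher. Their log2 changes ran from -0.35 (Cox8a) to -0.01 (Sdhd) with a median of -0.14, none had an unadjusted p under 0.05, and DESeq2 called 0 as well. All 39 values were below 0, and 4 were above 0 after correction. Whether Pre 2'-FL mice had received the sugar is not clear, so the comparison cannot show what it does before surgery.

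The difference between the arms (2'-FL minus control) was called above 0 for 31 members, where 7.47% of all genes were called above 0 and 8.03% below. Its median was 1.21, against -0.03 over all genes. Complex IV was called in full (10 of 10), complex V in 12 of 15, complex III with cytochrome c in 7 of 10 and complex II in 2 of 4. Atp5e had the largest difference, 1.91 ± 0.41 (SE; adjusted p = 0.0162). Without Post control 3 the count was 14, without both libraries that stood apart it was 0, and 17 of the 31 lost their call in at least 1 fit with a library left out. After correction none of the 39 and no gene of the 13154 was called, and the median was 0.33. With the shortest transcripts 1 member, Uqcrq, was called (1.35). Over both arms together, Post against Pre, 35 members were called higher and Sdha lower, where 25.3% and 31.1% of all genes were, and 28 higher and none lower after correction, where 25.2% and 18.4% were.

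Genes that assemble or accompany the complexes were counted in Post 2'-FL against Pre 2'-FL, where 25.3% of all genes were called higher and 30.0% lower. Among 29 assembly factors tested, 18 mRNAs were called higher, 2 lower and 9 not at all, with a median of 1.22. Those lower were Lrpprc, which stabilises mitochondrial mRNAs (-1.08), and Cox15, needed for heme A (-0.64). Neither was called after correction (-0.53 and 0.03). After correction 15 assembly factors were higher and 1, Cox18, lower (-1.28), where 21.3% and 14.7% of all genes were. Uqcc2, needed to build complex III, averaged 83.5 ± 24.5 CPM in Post 2'-FL and 15.9 ± 2.37 CPM in Pre 2'-FL (SD, n = 3 each) and rose by 2.39 (1.51 after correction). The complex IV factors Cox14, Cox16 and Cox17, a copper chaperone, rose by 2.15, 2.19 and 1.62. After correction Cox14 had 1.18 and Cox16 0.79, both called, and Cox17 had 0.13, not called.

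Of 10 tissue isoforms and associated proteins tested out of 16, 9 rose and none fell (6 and 1 after correction). Cox7a1, the isoform of heart and skeletal muscle, rose by 2.59 (1.42 after correction) and Usmg5, a small protein of the ATP synthase dimer, by 2.70 (0.76). Ndufa4, a subunit now placed in complex IV, rose by 2.17 (0.36, not called, after correction). Summed striated muscle markers were at 14.9 to 18.6 CPM in Post 2'-FL and 8.64 to 46.0 CPM in Pre 2'-FL. Cox6b2, the testis isoform, was at 19.3 ± 4.21 CPM in Post 2'-FL, 19.9 ± 11.2 CPM in Post control, 1.73 ± 0.205 CPM in Pre 2'-FL and 2.61 ± 1.07 CPM in Pre control. It rose in both arms, by 3.46 with the sugar and 2.92 without, and the Post groups differed by -0.03 (adjusted p = 0.946), but by -0.91 after correction (adjusted p = 0.0400).

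The regulators of mitochondrial genes did not move one way: of 14 tested 5 rose and 5 fell, and 5 rose and none fell after correction. Tfam, which packages and transcribes mitochondrial DNA, rose by 0.95 and Esrra, an estrogen-related receptor, by 0.86 (1.25 and 1.41 after correction). Yy1 rose by 0.80 (1.95). Polrmt, the mitochondrial RNA polymerase, fell by 1.32 and had -0.21 after correction, not called. Ppargc1a (-0.99), Ppargc1b (-1.35) and Pprc1 (-1.79) were called lower too, and were not called after correction (-0.57, -0.41 and -0.54). Of the factors named with the motifs, Nrf1 (-0.38) and Gabpa (0.04) were not called with or without correction. Gabpb1 rose by 0.56 (0.93). Among 16 genes of other mitochondrial parts 10 rose and 2 fell (7 and 2 after correction), led by the import receptor Tomm20 at 1.91 (2.40).

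Complex I, in which 34 of 36 genes rose and none fell (23 and 0 after correction), had a median of 1.56, close to the 1.66 of the members. Other large assemblies of short mRNAs moved alike: 14 of 14 proteasome genes rose, with a median of 1.41 (10 higher and 1 lower after correction), as did 19 of 20 cytosolic ribosome genes, with a median of 1.62 (14 and 1). Whether the members differ from these lists was not tested.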

How the data were processed

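Bulk mRNA of mouse small bowel was measured in 12 libraries, 3 in each of 4 groups set by the labels, prepared with TruSeq kits and sequenced on an Illumina HiSeq per the labels' protocols. The deposited files hold 1 estimated count per gene and library, not all whole, and these expected counts were rounded to whole numbers. Per the submitters' processing notes, the build was mm10 and DESeq was used. The aligner, the counter, the annotation and the use of strand are not given in the sources used here. The 36186 entries, with 486 for repeated places of a gene, were summed to 35791 genes.

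Counts were scaled by the trimmed mean of M values, genes with low counts were removed, and 1 model of the 4 groups was fitted with edgeR 4.0.16 in R 4.3.3 (8 residual degrees of freedom). Depth of 5663275 to 9385266 counts limits rare genes most, and all members passed the filter. For the correction, each gene's log2 CPM minus its mean over the libraries was fitted per library with splines on transcript length and GC content (4 degrees of freedom each). The fitted values, which are relative to the other libraries, were used as offsets, with the longest curated transcript (GENCODE M21, 12654 genes). DESeq2 1.42.0, other scalings and filters, a replicate block, a fit of the 2 groups and single libraries left out were alternatives. The shortest transcript, the coding length and the removal of the 2 libraries that stood apart were added after the data were seen. The procedure was tested on simulated data. Members and lists were chosen with earlier results of these data known. All 39 members are named, and values in every library are given for the 2 members of each complex with the highest CPM per kb, the 2 with the smallest p in Post 2'-FL against Pre 2'-FL, and members that moved against most others. Atp5e, Uqcrc1, Atp5a1, Cycs, Uqcrb and Atp5g1 were added after their values were seen. Of each other list at most 4 genes with the smallest p were named. Lrpprc, Cox15, Cox18, Ppargc1a, Ppargc1b, Pprc1, Nrf1, Gabpa, Gabpb1, Fabp2, Apoa1, Vil1 and Malat1 fall outside that and were named after their values were seen.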

Additional observations from a re-analysis of the deposited data

Results flagged for a closer look

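For 31 members the change in the 2'-FL arm (Post 2'-FL against Pre 2'-FL) differed from the change in the control arm (Post control against Pre control) in the test of the difference itself, by edgeR's quasi-likelihood method and Benjamini-Hochberg adjusted p, 3 libraries in each group. The differences are log2 values, the 2'-FL arm minus the control arm. In complex II they were Sdhb 1.08 and Sdhd 1.29. In complex III with cytochrome c they were Uqcrfs1 0.98, Uqcrh 1.69, Uqcrq 1.72, Uqcr10 1.58, Uqcr11 1.56, Cyc1 0.98 and Cycs 1.15. In complex IV they were Cox4i1 1.46, Cox5a 1.14, Cox5b 1.12, Cox6a1 1.23, Cox6b1 1.34, Cox6c 1.37, Cox7a2 1.52, Cox7b 1.70, Cox7c 1.52 and Cox8a 1.21. In complex V they were Atp5c1 0.97, Atp5e 1.91, Atp5f1 1.25, Atp5g1 1.00, Atp5g2 1.05, Atp5g3 0.91, Atp5h 1.22, Atp5j 1.16, Atp5j2 1.43, Atp5k 1.63, Atp5l 1.50 and Atp5o 1.27. None of the 31 passed after correction for transcript length and GC content, and none passed without the 2 libraries that stood apart. The parts of transcript length and of single libraries in these differences were not tested.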

How the results depend on the processing

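Uncorrected calls in Post 2'-FL against Pre 2'-FL numbered 35 to 37 over the fits with a library left out, and 22 to 29 with correction. For Post control against Pre control, where 1 member was called, the number was 7 with correction, 5 with DESeq2, 0 with no filter, 2 in a fit of the 2 groups, 5 with the shortest transcript, 2 with coding length and 7 without the 2 libraries that stood apart, corrected or not. It was 0 to 7 with a library left out, corrected or not. Post 2'-FL against Post control had 34 calls, and 11 with correction, 15 with the shortest transcript, 20 with coding length, 3 with correction and without those 2 libraries, 33 to 35 with a library left out and 3 to 14 when corrected as well. The difference between the arms had 31 calls, 0 with correction, 1 with the shortest transcript, 0 with coding length, 0 without those 2 libraries, corrected or not, 14 to 33 with a library left out and 0 to 4 when corrected as well. Correlations of deviations ran from -0.225 to 0.419 between libraries of the same number, and from -0.118 to 0.22 where these shared an arm. Between libraries of different numbers they ran from -0.358 to 0.311. With 3 libraries per group such values cannot show whether libraries shared a mouse. With a replicate block the control arm had 0 calls and the difference between the arms 29, and with block and correction there were 6 calls in the control arm, 9 in Post 2'-FL against Post control and 0 for the difference.

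Signs turned as follows, as log2 changes with correction, then with block and correction. In Post 2'-FL against Pre 2'-FL they were -0.62 and -0.63 for Uqcrb (-0.40 with the shortest transcript), -0.087 and -0.083 for Atp5b, and -0.038 and -0.037 for Atp5g3. In Post 2'-FL against Post control they were -0.86 and -0.87 for Uqcrb, -0.22 and -0.22 for Cox5a, -0.048 and -0.049 for Cox5b, -0.22 and -0.22 for Cox6c, -0.14 and -0.14 for Cox7c, and -0.29 and -0.29 for Atp5g3. There the shortest transcript gave -0.66 for Uqcrb, -0.038 for Cox5a, -0.0051 for Cox6c and -0.13 for Atp5g3, and coding length gave -0.11 for Sdhc, -0.27 for Uqcrb and -0.15 for Cycs. For the difference between the arms they were -0.095 and -0.092 for Cox5a, -0.071 and -0.075 for Cox6c, and -0.19 and -0.19 for Atp5g3, and coding length gave -0.033 for Cycs. The cause was not tested. The transcripts expressed in these samples are not known, so corrected values rest on annotated ones.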
